A study of Mus musculus with 13 samples.

Results

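The immediate early genes described here were Fos, Fosb, Jun, Junb, Egr1, Atf3, Ier2, Ier3, Nr4a1 and Myc. They were chosen by symbol, matched to the Ensembl identifiers of the deposited tables, and all 10 were found among 17924 genes. All 10 also passed a filter of at least 10 normalized counts in at least 3 libraries, which left 17069 genes for testing. Their levels were compared across 13 RNA-seq libraries of whole muscles of homozygous *mdm* mice: 5 of the fast extensor digitorum longus (EDL), 5 of the psoas and 3 of the slow soleus. Every library came from a mouse with the *mdm* allele, a deletion in the titin gene Ttn that causes muscular dystrophy with myositis, and the founders of the colony, of the strain B6C3Fe a/a-Ttn mdm/J, were heterozygous for it. The allele is carried in every tissue, the mice had been killed under isoflurane in the course of other experiments, and the labels give the libraries as biological replicates of mice aged 29, 33, 36, 38 or 42 days. No wild-type library was used here, so the comparisons are between muscles and between animals, not between *mdm* and normal muscle. Whole muscle also holds endothelial cells, fibroblasts, macrophages and satellite cells, and in bulk RNA fewer cells of a type and less RNA per cell cannot be told apart.

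Immediate early genes are switched on within minutes of a stimulus, from transcription factors already present in the cell and without new protein synthesis. Kinase cascades such as ERK, JNK and p38 reach serum response factor, CREB and the ternary complex factors at their promoters, and the messenger RNAs are then removed quickly, in part through AU-rich elements in their 3′ untranslated regions (UTRs). Fos and Fosb pair with Jun and Junb to form the AP-1 transcription factor, and Atf3 is a stress-induced partner of the same bZIP family. Egr1 is a zinc finger factor, Nr4a1 an orphan nuclear receptor, Ier2 and Ier3 encode small induced proteins, and Myc drives growth and ribosome production. In skeletal muscle these genes are known to respond to contraction, stretch, injury and the handling of tissue, as well as to the growth signals of satellite cells.

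The 10 genes were compact. In the GENCODE M21 annotation of GRCm38 their median span was 4609 bp against 18804 bp over 16986 genes tested, and 6 of 10 (60.0%) spanned under 5000 bp against 22.4% of all. At most 4 exons in the longest model were found for 7 of 10 (70.0%), against 32.4% of all, and Jun and Ier2 had 1 exon each. Fos lies at chr12:85473890-85477273 on the plus strand and Fosb at chr7:19302696-19310051 on the minus strand. Jun is at chr4:95049034-95052222 and Junb at chr8:84974484-84978718, both on the minus strand. Atf3 is on chromosome 1, Ier2 on chromosome 8, Ier3 on chromosome 17, and Nr4a1 and Myc on chromosome 15. Exons of Jun share 232 bases with Junos and exons of Junb share 173 bases with Prdx2, in both cases on the opposite strand. The strand setting of the counting is not given in the sources used here, so reads in those bases may belong to either gene.

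Promoter windows were present for 7 of the 10 genes in a RefSeq table on GRCm38.p6. The letters TGACG, the core of the cyclic AMP response element bound by CREB, were found on either strand of the 250 bases before the start in 5 of these 7 windows (Fos, Fosb, Junb, Atf3 and Nr4a1) and in 17.77% of 32851 windows of that length. The last 120 bases before the start are shown for these 5 genes, since they include the pair with the widest spread between animals, with TGACG or its reverse complement CGTCA in capitals and, in Fos, also the letters TATAAA of a TATA box.
Fos (chr12:85473770-85473889, plus strand): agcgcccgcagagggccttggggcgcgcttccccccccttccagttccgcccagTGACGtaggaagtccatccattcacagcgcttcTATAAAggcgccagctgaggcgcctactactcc
Fosb (chr7:19310046-19310165, minus strand): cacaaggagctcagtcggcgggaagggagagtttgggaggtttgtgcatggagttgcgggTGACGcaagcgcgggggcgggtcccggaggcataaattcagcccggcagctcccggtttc
Junb (chr8:84978749-84978868, minus strand): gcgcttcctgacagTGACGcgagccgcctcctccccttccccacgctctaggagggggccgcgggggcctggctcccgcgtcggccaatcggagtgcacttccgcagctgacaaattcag
Atf3 (chr1:191183334-191183453, minus strand): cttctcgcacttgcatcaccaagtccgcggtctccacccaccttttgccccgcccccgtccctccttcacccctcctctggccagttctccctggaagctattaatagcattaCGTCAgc
Nr4a1 (chr15:101266726-101266845, plus strand): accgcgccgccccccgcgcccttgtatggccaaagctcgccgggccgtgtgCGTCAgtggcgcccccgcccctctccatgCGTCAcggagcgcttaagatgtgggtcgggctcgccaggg
TATAAA was found in the Fos window and in 12.37% of all windows. The EGR site GCGNGGGCG, searched on both strands, was found in Fosb and Nr4a1 and in 4.7% of all windows. The full element TGACGTCA, the AP-1 site TGANTCA, the serum response (CArG) box and the E-box CACGTG were found in 0 of the 7 windows and in 1.55%, 6.75%, 1.47% and 6.02% of all. Bases farther than 250 from the start were not searched, so 0 matches do not show that a promoter lacks an element. The 7 windows were 54.4% to 74.4% G or C, against a median of 52.4% over all windows. TGACG and GCGNGGGCG contain CG, and the shares over all windows are not matched for this content. These matches describe letters in a short window and not binding.

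The 3′ UTRs were rich in ATTTA, the core letters of AU-rich elements. At least 1 copy was found in 9 of the 10 genes (90.0%, against 67.4% of 13406 genes), with a median of 3.68 copies per kb against 1.27. Ier3 had 5 copies (8.16 per kb) and Fos had 4, while Ier2 had 0 in 755 bases. The longer letters TTATTTATT, which contain ATTTA, were found in Fos alone of the 10 and in 7.6% of all genes. Stretches of 30 bases around these letters are shown for 3 genes that differ in copy number, with ATTTA in capitals.
Fos (chr12:85477100-85477129, plus strand): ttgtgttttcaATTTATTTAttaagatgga
Ier3 (chr17:35822484-35822513, plus strand): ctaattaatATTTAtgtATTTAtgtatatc
Junb (chr8:84977127-84977156, minus strand): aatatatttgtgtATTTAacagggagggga

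Sequencing depth was uneven. The total count per library ranged from 12059090 to 48835209 in EDL, from 16315975 to 30009501 in psoas and from 9114176 to 39484945 in soleus. Replicates 1 and 2 were the deepest of EDL and of psoas, and this bears on the comparisons between replicate numbers. Mitochondrial genes took 7.98% to 18.7% of the counts. The muscle labels were checked against fibre genes: 8 slow fibre genes (among them Myh7 and Tnnt1) summed to between 350050 and 414997 normalized counts in soleus and to at most 66549 in any EDL or psoas library. The normalized counts used throughout are the deposited ones, which are raw counts divided by 1 size factor per library.

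The widest differences among the immediate early genes were between replicates of a muscle rather than between the means of the muscles. None of the 10 was called different between EDL, psoas and soleus, whereas Fos, Egr1 and Nr4a1 varied several-fold from 1 replicate number to another and did so in parallel in the EDL and the psoas. Fos, which encodes the partner of Jun in AP-1, showed this most clearly. In EDL replicates 1 to 5 it stood at 457, 778, 141, 79.5 and 31.1 normalized counts, in psoas replicates 1 to 5 at 418, 709, 111, 68.6 and 56.4, and in soleus replicates 1 to 3 at 148, 154 and 96.3. The same 2 replicate numbers were the highest in EDL and in psoas, and the 3 soleus libraries fell inside the range of both. The highest library exceeded the lowest 25.0-fold in EDL, 12.6-fold in psoas and 1.60-fold in soleus. Means were 297 ± 316 (SD, n = 5) in EDL, 272 ± 285 (n = 5) in psoas and 133 ± 31.8 (n = 3) in soleus, so that the SD was as large as the mean in EDL and psoas.

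**Figure D1:**
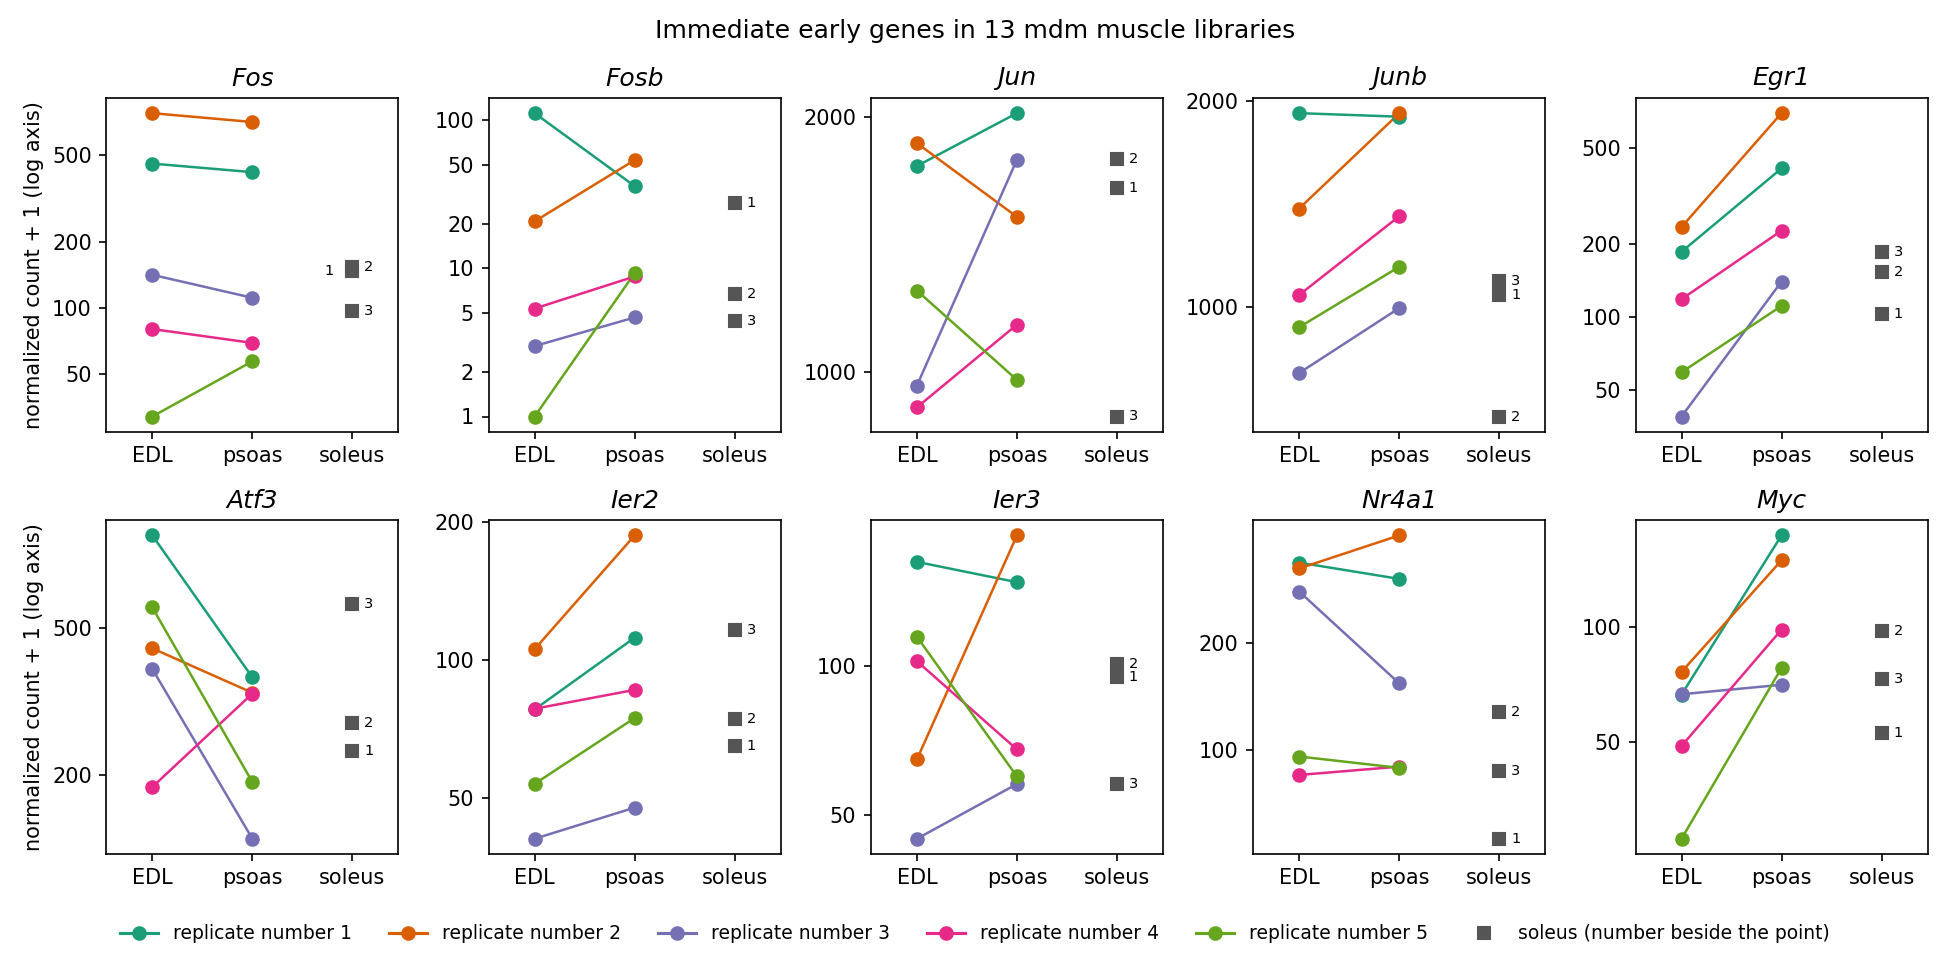
Normalized count + 1 (log axis, its range set for each gene) of the 10 immediate early genes in each *mdm* library, by muscle, with EDL and psoas libraries of the same number in 1 colour and joined by a line and soleus libraries as squares with their number. Fos ranges from 31.1 to 778 in EDL and from 56.4 to 709 in psoas with replicates 1 and 2 on top, whereas Jun and Junb each stay within 2.40-fold inside any muscle.

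Fosb, a close relative of Fos whose shortened product is known for its stability, was the least abundant of the 10. Its normalized counts were 111, 19.8, 1.99, 4.36 and 0 in EDL, 34.9, 52.9, 3.66, 7.82 and 8.29 in psoas, and 26.5, 5.71 and 3.44 in soleus. These values rest on few reads, with raw counts of 260, 31, 1, 4 and 0 in the 5 EDL libraries. EDL replicate 1 held most of the EDL signal, and EDL replicates 3 to 5 lay below every psoas library except replicate 3. The mean was 27.4 ± 47.2 in EDL, 21.5 ± 21.5 in psoas and 11.9 ± 12.7 in soleus, and the EDL mean rests on that 1 library. The psoas to EDL log2 fold change of Fosb was -0.40 (SE 1.02, edgeR adjusted p = 0.816), and without EDL replicate 1 it was 1.53.

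Jun, the partner on which AP-1 is built, was high and comparatively even. It was measured at 1749.5, 1862, 962, 906 and 1246 normalized counts in EDL, at 2020.3, 1523, 1779.7, 1135 and 976 in psoas, and at 1647, 1782 and 884 in soleus. The 3 muscles covered the same range, with means of 1345 ± 442, 1487 ± 435 and 1438 ± 484, and the highest library was 2.05, 2.07 and 2.02 times the lowest. Junb, which pairs with the same Fos proteins and restrains Jun activity, was at 1919, 1391, 798, 1039 and 932 in EDL, at 1896, 1918, 994, 1355 and 1142 in psoas, and at 1039, 689 and 1088 in soleus. Its 2 highest libraries in EDL and in psoas were again replicates 1 and 2, but over a range of 2.40-fold and 1.93-fold. Prdx2, the gene whose exons overlap Junb on the other strand, was itself abundant in these muscles, so the Junb counts could include some of its reads.

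Atf3, induced by the integrated stress response and by injury, followed another order. It stood at 892, 439.6, 386, 184 and 568 in EDL, at 367, 333, 133, 331 and 189.8 in psoas, and at 230.1, 276 and 581 in soleus. EDL replicate 5, which had the lowest Fos of all libraries, had the second highest Atf3 of the EDL group. The mean was 494 ± 262 in EDL, 271 ± 103 in psoas and 362 ± 191 in soleus, with overlapping libraries.

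Egr1, a zinc finger factor whose gene lies on chromosome 18 and is driven by ERK and serum response factor, varied between replicates like Fos and in addition lay higher in psoas than in the EDL of the same number. Its normalized counts were 185, 235, 37.8, 118 and 58.2 in EDL and 411, 696, 139, 227 and 110.2 in psoas. In soleus they were 102, 152 and 186. Psoas exceeded EDL within each of the 5 numbers, by 0.90 to 1.83 on the log2 scale, yet the groups overlapped because the mean of EDL and psoas differed up to 5.46-fold between the numbers. Means were 127 ± 83.3 in EDL, 317 ± 242 in psoas and 147 ± 42.0 in soleus. Over all libraries the psoas to EDL log2 fold change was 1.29 (SE 0.527, edgeR adjusted p = 0.101), short of the limit of 0.01. With the replicate number as a block it was 1.22 (SE 0.380, edgeR adjusted p = 0.0381), still short of it.

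Nr4a1, the nuclear receptor Nur77 that responds to contraction and to cyclic AMP, was measured at 337, 324, 279, 83.9 and 94.7 in EDL. In psoas it was at 303, 402, 153, 88.6 and 87.9, and in soleus at 55.0, 127 and 86.0. Replicates 4 and 5 were the lowest in EDL and in psoas alike, and EDL and psoas of 1 number never differed by more than 1.83-fold while the pair means spanned 4.20-fold. The mean was 224 ± 125 in EDL, 207 ± 140 in psoas and 89.4 ± 36.2 in soleus. The soleus to EDL log2 fold change of -1.33 (SE 0.603) gave an edgeR adjusted p of 0.310. Under a replicate block that change was -1.84 with an adjusted p of 0.0094, the single fit in which an immediate early gene was called in a pairwise comparison at the limits used here, but the soleus libraries of those numbers differ from EDL in age, and 2 of the 3 also in code. Over the alternatives tried its adjusted p ran from 0.0094 to 0.634.

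Ier2, a small nuclear protein induced by serum, was at 77.1, 105, 39.8, 77.3 and 52.7 in EDL, at 111, 186, 46.7, 85.1 and 73.8 in psoas, and at 64.1, 73.6 and 115 in soleus. It was highest in replicate 2 and lowest in replicate 3 of both EDL and psoas, and psoas exceeded the EDL of its number in 5 of 5, by 0.16 to 0.79 on the log2 scale. Ier3, a regulator of apoptosis induced by NF-kB and p53, was at 161, 63.8, 43.8, 101 and 114 in EDL, at 147, 183, 56.8, 66.9 and 58.9 in psoas, and at 93.9, 99.98 and 56.7 in soleus. Its order differed between the muscles, with replicate 2 the highest of psoas and the second lowest of EDL. The mean of Ier3 lay between 83.6 and 102 in the 3 muscles, within the SD of any of them.

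Myc, the growth regulator, was the member with the smallest p between muscles. Its normalized counts were 65.6, 75.3, 65.7, 47.9 and 27.1 in EDL, 172, 148, 69.6, 97.3 and 77.1 in psoas, and 51.7, 96.4 and 72.2 in soleus. Only psoas replicate 3 fell among the EDL values, and psoas was above EDL in each of the 5 numbers, by 0.07 to 1.46 on the log2 scale. Means were 56.3 ± 19.1 in EDL, 113 ± 45.0 in psoas and 73.5 ± 22.4 in soleus. The psoas to EDL log2 fold change was 0.99 (SE 0.328, edgeR adjusted p = 0.0489), just under the fold limit of 1 and past an adjusted p of 0.05 but not of 0.01. At that looser limit of 0.05 with no limit on the fold Myc was the 1 member of 10 called, against 18.1% of all genes tested. With the replicate block it was 1.02 (SE 0.265, adjusted p = 0.0185). The satellite cell and myoblast markers were also higher in psoas as a group. Their 6 genes summed to between 2913 and 4239 in EDL, between 3986 and 8338 in psoas and between 2966 and 4524 in soleus. Of the 6, 1, Myod1, was called higher in psoas. Library by library their sum did not follow Myc. In each muscle the library with the highest sum (EDL replicate 5, psoas replicate 3 and soleus replicate 1) had the least Myc. The most Myc in psoas was in replicate 1, which had the lowest sum (3986). In EDL it was in replicate 2, whose sum was 3834. Myod1 alone was highest in psoas replicate 1 (546), where Myc was highest. In EDL and soleus Myod1 was instead highest in replicate 5 (193) and replicate 1 (137), where Myc was lowest. The part of satellite cells and myoblasts in the Myc and Egr1 values was not tested.

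Per kb of exon, the order of the 10 genes was much the same in the 3 muscles. In EDL, Junb (528 ± 196 normalized counts per kb) and Jun (422 ± 138) led, followed by Atf3 (229 ± 122), Fos (126 ± 134), Ier3 (85.6 ± 40.4), Nr4a1 (63.7 ± 35.5), Ier2 (46.2 ± 16.5), Egr1 (28.3 ± 18.6) and Myc (20.7 ± 7.03), with Fosb last (4.38 ± 7.57). Most neighbours in that order lay within each other's SD, and in EDL the libraries of Jun overlapped those of Atf3 and the libraries of Fosb overlapped those of Myc and Egr1. In psoas and soleus every library of Jun and Junb lay above, and every library of Fosb below, all libraries of the other members. In psoas, Junb (635 ± 186) and Jun (466 ± 136) again led and Atf3 (126 ± 47.7) and Fos (116 ± 121) were level. Egr1 (70.6 ± 54.0) stood 6th of the 10 there. In soleus, Jun (451 ± 152) and Junb (408 ± 94.6) changed places within their SD and Nr4a1 (25.5 ± 10.3) was next to last. Fos in soleus (56.4 ± 13.5) did not stand apart from Ier2 (55.4 ± 17.9) or Ier3 (73.9 ± 20.7).

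Across muscles, the comparison asks whether the immediate early genes separate a fast muscle, a trunk muscle and a slow muscle that carry the same mutation. With edgeR's quasi-likelihood test and the study's own limits (a log2 fold change beyond 1 in either direction at a Benjamini-Hochberg adjusted p below 0.01), 0 of 10 members were called in psoas against EDL, where 4.93% of all genes were called. Likewise 0 of 10 were called in soleus against EDL (0.978% of all) and 0 of 10 in soleus against psoas (0.0762% of all). A test of any difference between the 3 muscles called 0 of 10 (4.22% of all), with Myc the closest at an adjusted p of 0.112. At an unadjusted p under 0.05 from the same edgeR fit there were 3 members in psoas against EDL (Egr1, Atf3 and Myc; 33.3% of all genes), 1 in soleus against EDL (Nr4a1; 15.1% of all), 0 in soleus against psoas (12.7% of all) and 1 for any difference (Myc; 29.4% of all). DESeq2's Wald test also called 0 of 10 in each pair of muscles (9.35%, 3.73% and 1.01% of all genes), and so did limma (5.79%, 1.27% and 0.117% of all). The normalized counts of the muscles overlapped for all 10 members in every pair, whereas every psoas value lay above every EDL value for 6.48% of all genes and below for 6.56%. For soleus these shares were 5.33% and 5.72% against EDL, and 4.97% and 5.19% against psoas.

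**Figure D2:**
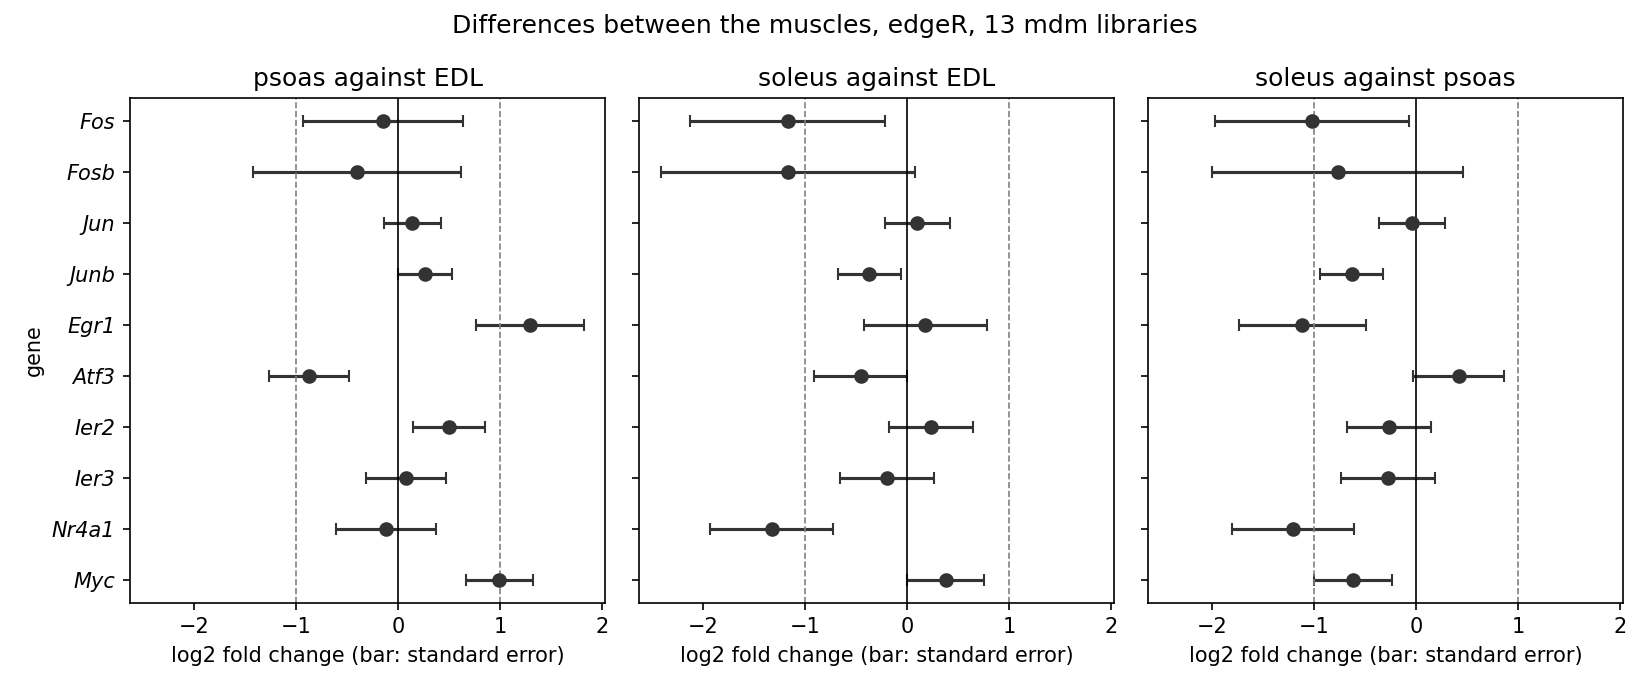
Log2 fold changes of the 10 genes in the 3 comparisons of muscles (horizontal axis, log2 units), with the standard error as bars and dashed lines at -1 and 1. No gene met both limits, the widest bars belong to Fos and Fosb, and Myc (0.99), Egr1 (1.29) and Atf3 (-0.87) lie farthest from 0 relative to their error in psoas against EDL.

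The median log2 fold change of the 10 was 0.11 in psoas against EDL (6 above 0), -0.28 in soleus against EDL (4 above 0) and -0.62 in soleus against psoas (1 above 0), where the medians of all genes were 0.02, -0.03 and -0.03. The 3 comparisons share libraries and are not independent of each other. Standard errors were widest for Fosb, at 1.02 to 1.25, and for Fos, at 0.786 to 0.957, and narrowest for Junb and Jun, at 0.264 to 0.323. For Fos the soleus to EDL log2 fold change was -1.17 with an edgeR adjusted p of 0.634, and for Junb the soleus to psoas change was -0.63 with an adjusted p of 0.421. With the replicate number as a block, the psoas to EDL change of Fos was -0.03 with a smaller SE of 0.273 (edgeR adjusted p = 0.947). Atf3 was the member with the most negative psoas to EDL change (-0.87, SE 0.392, edgeR adjusted p = 0.136), and it was lower in the psoas than in the EDL of 4 of 5 numbers.

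The direction of several of these differences depended on which libraries were set side by side. Libraries also carry an unexplained code in the labels, and 3 codes held both EDL and psoas. Within them, Egr1 was higher in psoas in 3 of 3 codes (by 0.93 to 1.83 on the log2 scale), as were Myc (0.07 to 1.24), Junb (0.31 to 0.43), Ier2 (0.21 to 0.79) and Fosb (0.57 to 1.72). Atf3 was lower in psoas in 3 of 3 (-1.54 to -0.36), and Fos differed by -0.36 to 0.32 with no common direction. Of the 2 codes that held soleus, the log2 difference of Fos in soleus from EDL was -2.37 in the code T4 and 0.94 in the code T6. Nr4a1 was lower in soleus in both, by values between -1.95 and -0.04.

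Within a muscle, 4 of the members varied far more than a typical gene. The SD of log2 CPM (counts scaled to a TMM-adjusted library total) around the muscle means was 1.89 for Fosb and 1.57 for Fos, higher than in 99.3% and 98.4% of all genes tested. It was 0.995 for Egr1 and 0.933 for Nr4a1, then 0.733 for Atf3, 0.696 for Ier3, 0.598 for Ier2 and 0.551 for Myc. Jun (0.484) and Junb (0.443) sat near the median of all genes, which was 0.455, while the median of the 10 was 0.715. An SD over 0.8 was found for 4 of 10 members (40.0%) and for 16.9% of all genes. Fosb lies among the least abundant genes, where counting error adds to the spread, but Fos, Egr1 and Nr4a1 had at least 19 raw counts in every library.

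**Figure D3:**
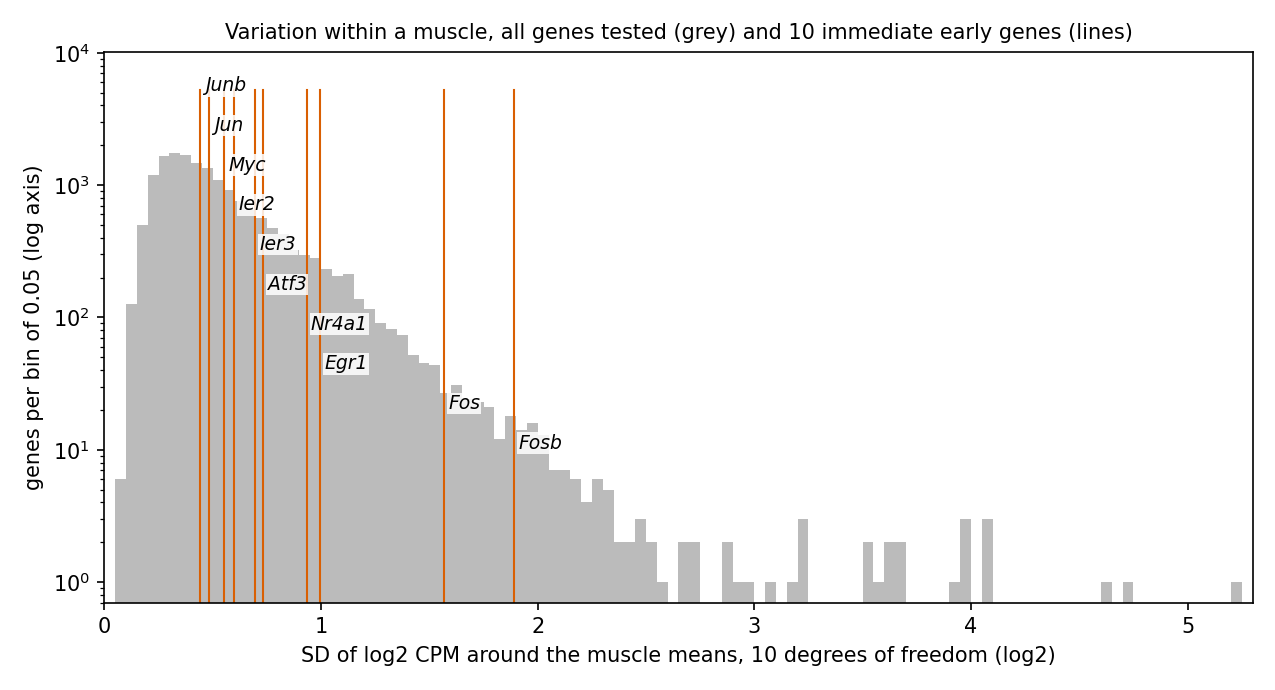
Histogram of the SD of log2 CPM around the muscle means (horizontal axis, log2 units) over all genes tested, with genes per bin on a log axis, and a line for each of the 10 immediate early genes. Jun (0.484) and Junb (0.443) lie within the bulk, while Fos (1.57) and Fosb (1.89) lie in the right tail.

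For some members the replicate numbers that were high in EDL were also high in psoas. EDL and psoas libraries of the numbers 2 to 5 share their age and code. Those of number 1 do not and came from different mice, so number 1 is not a pair from 1 animal. Over all genes a library of EDL deviated from its muscle mean most like the psoas library of its own number in 5 of 5 cases. The correlations across genes were 0.289 to 0.407, highest for number 1. For Fos the log2 difference of psoas from EDL was -0.11, -0.17, -0.36, -0.18 and 0.83 in the numbers 1 to 5, so the muscles of a number were never more than 1.77-fold apart, while the mean of the pair ranged 17.3-fold. The SD of the pair means over the SD of these differences was 3.67 for Fos, higher than in 99.5% of all genes. This ratio was 2.71 for Egr1, 2.64 for Junb, 2.43 for Ier2 and 2.23 for Nr4a1, each higher than in over 97% of genes, against a median of 0.738 over all genes. It was 1.17 for Fosb, 0.908 for Myc, 0.754 for Jun, 0.625 for Ier3 and 0.513 for Atf3. The ratio was thus graded, from Fos far above that median to Atf3 and Ier3 below it. The ratios of Atf3 and Ier3 were higher than in 24.4% and 37.4% of genes. The SD of the differences exceeded that of the pair means in Atf3 (1.03 against 0.530) and in Ier3 (0.93 against 0.583). It also did so in Jun (0.51 against 0.386) and in Myc (0.553 against 0.502). The median gene has such a ratio too, so it does not show that a level was unrelated to the number.

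A test of the replicate number, added after these values had been seen, asked whether the 5 numbers differed with muscle in the fit (edgeR quasi-likelihood F test, 10 libraries of EDL and psoas). Fos was 1 of 5 genes called at an adjusted p under 0.01 (0.0293% of all genes), ranking 2 of 17069 with an adjusted p of 0.00573. The other genes called were Lep, which encodes the adipocyte hormone leptin, and Rps3a3, Gm25939 and Gm14036, which may share reads with near-identical copies and are uncertain. They were named after their values were seen. Egr1 (adjusted p = 0.0192, rank 33) and Nr4a1 (0.0307, rank 71) came next among the members but were not called. Fosb, Ier2 and Junb had adjusted p values of 0.0807, 0.0834 and 0.0883, and Myc, Jun, Ier3 and Atf3 lay between 0.209 and 0.357. At an unadjusted p under 0.05 there were 6 of 10 members and 24.1% of all genes. Over the numbers 2 to 5 alone, whose labels match between the muscles, 53 genes were called (0.311% of all) and Fos was the 1 member among them (edgeR adjusted p = 0.00199, rank 8), with Egr1 at 0.0124 and Nr4a1 at 0.0247. When number 2, 3, 4 or 5 was left out the edgeR adjusted p of Fos was 0.0368, 0.0230, 0.0208 and 0.0128, so that 0 members were called. DESeq2's likelihood ratio test called 6 members, Fos, Fosb, Junb, Egr1, Ier2 and Nr4a1, among 7.43% of all genes.

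**Figure D4:**
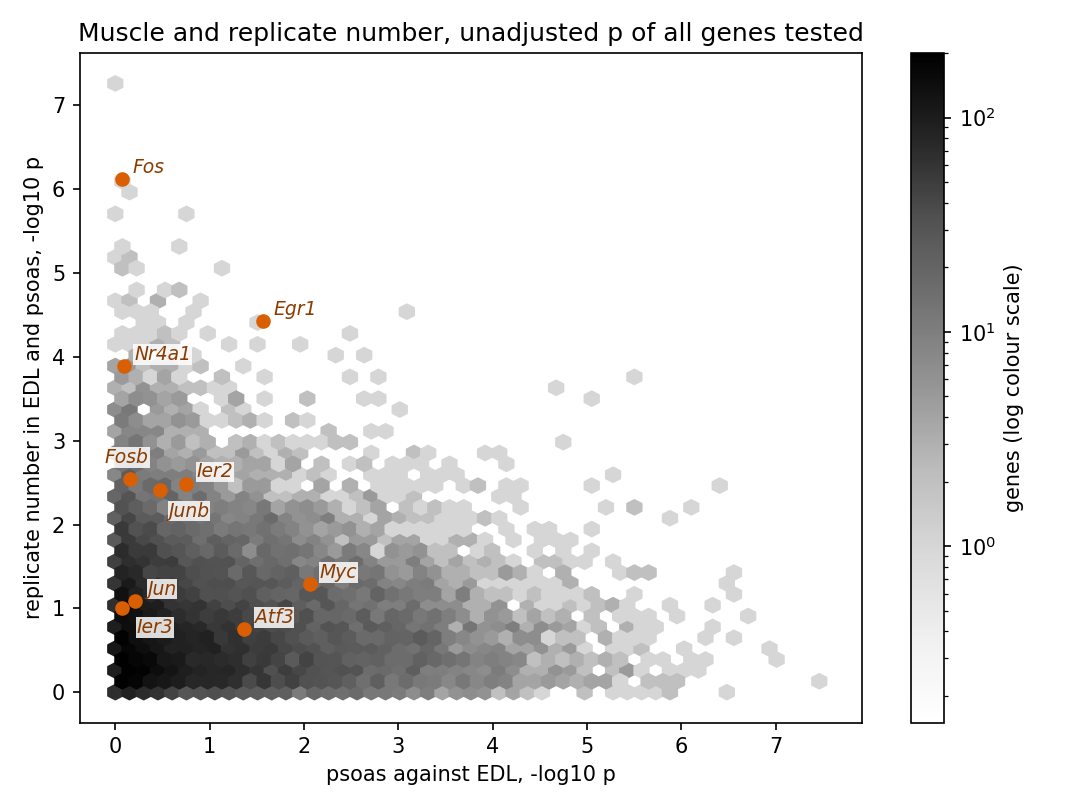
Unadjusted p of each gene tested, as -log10, in psoas against EDL (horizontal axis) and for the replicate number in EDL and psoas (vertical axis), with all genes as grey hexagons shaded by their number on a log scale and the 10 immediate early genes as points. Fos lies near the top left, rank 2 of 17069 for the number with a psoas to EDL log2 fold change of -0.15, Egr1 and Nr4a1 follow below it, and Myc and Atf3 lie to the right and low.

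What sets the numbers apart was not tested. The labels do not say whether the libraries of a number came from 1 mouse. The paper lists fewer mice than muscles over its wild-type and *mdm* samples, so some muscles shared a mouse. The numbers 2, 4 and 5 share an age of 38 days in EDL and psoas. The Y-linked gene Ddx3y was at 0 in EDL and psoas of the numbers 3 and 5 and at 1732 to 3809 in those of 2 and 4. The numbers 2 and 4 thus match in age and sex, with Fos at 778 and 709 against 79.5 and 68.6. A number also goes with a label code and a depth of sequencing, and these cannot be told apart from the animals. The EDL and psoas libraries of number 1 came from mice of 38 and 29 days with different codes, T1 and T3, yet both had high Fos (457 and 418). In the code T4, Fos was 778 in EDL and 709 in psoas but 148 and 154 in the 2 soleus libraries, which came from mice of 33 and 36 days. In the code T6, Fos was 79.5 and 31.1 in EDL, 68.6 and 56.4 in psoas and 96.3 in soleus. Soleus replicate 1 was among the deepest libraries (39484945 counts) with Fos at 148, while the deepest EDL libraries were those with high Fos, and the part of depth was not tested. All 10 members had their highest pair mean in number 1 (5 genes) or number 2 (5 genes), where 26.4% and 16.4% of all genes had theirs.

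Markers of some other cell types had their highest values in the same numbers. The pair mean was highest in number 1 for 5 of 6 endothelial and 4 of 5 smooth muscle and pericyte markers, in number 2 for 6 of 8 macrophage markers, and in 1 of these numbers for all 5 mesothelial markers. An unadjusted p under 0.05 for the number was found for 2 of 6 endothelial, 2 of 5 smooth muscle, 4 of 8 macrophage and 4 of 5 mesothelial markers, beside 24.1% of all genes. The macrophage markers summed to 4497, 4412, 2538, 7942 and 2487 normalized counts in EDL replicates 1 to 5 and to 2608, 11649, 3964, 6791 and 5942 in psoas. In EDL they were highest in replicate 4, where Fos was 79.5, and lowest in replicate 5, where Fos was lowest (31.1). In psoas they were highest in replicate 2, where Fos was highest (709), and lowest in replicate 1, where Fos was 418. The endothelial sums ranged from 1867 to 4716 over these 10 libraries, highest in replicate 1 of both muscles. None of the macrophage or endothelial markers was at 0 in any library. The part of cell composition in the values of Fos, Egr1 and Nr4a1 was not tested.

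Over all 13 libraries Fos was most like Nr4a1 among the members. The root mean square difference of their centred log2 profiles was 0.823, which ranked 11 among the distances of Fos to all genes. Fosb was most like Fos (1.02, rank 22), Egr1 most like Ier2 (0.593, rank 61), and Ier2 most like Junb (0.417, rank 177). Jun (0.503 from Junb, rank 3650), Atf3 (0.712 from Junb, rank 1511) and Myc (0.521 from Ier2, rank 1480) lay much farther down their own rankings. Among all genes tested, those nearest to Fos were 5330439A09Rik (0.691), Nfkbiz (0.694), an induced regulator of NF-kB, and Gdap10 (0.725). Those nearest to Egr1 were Gm16332, Gm7694 and Il16 (0.412 to 0.436), those nearest to Nr4a1 were Cdc14a (0.456), Csrnp1 (0.531) and Ms4a4d (0.546), and those nearest to Fosb were 5330439A09Rik, Gm11331 and Gm24339 (0.777 to 0.872). These distances are descriptions over libraries that differ in depth and of which some share an age and a label code. The Gm models may share reads with related loci and are uncertain.

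**Figure D5:**
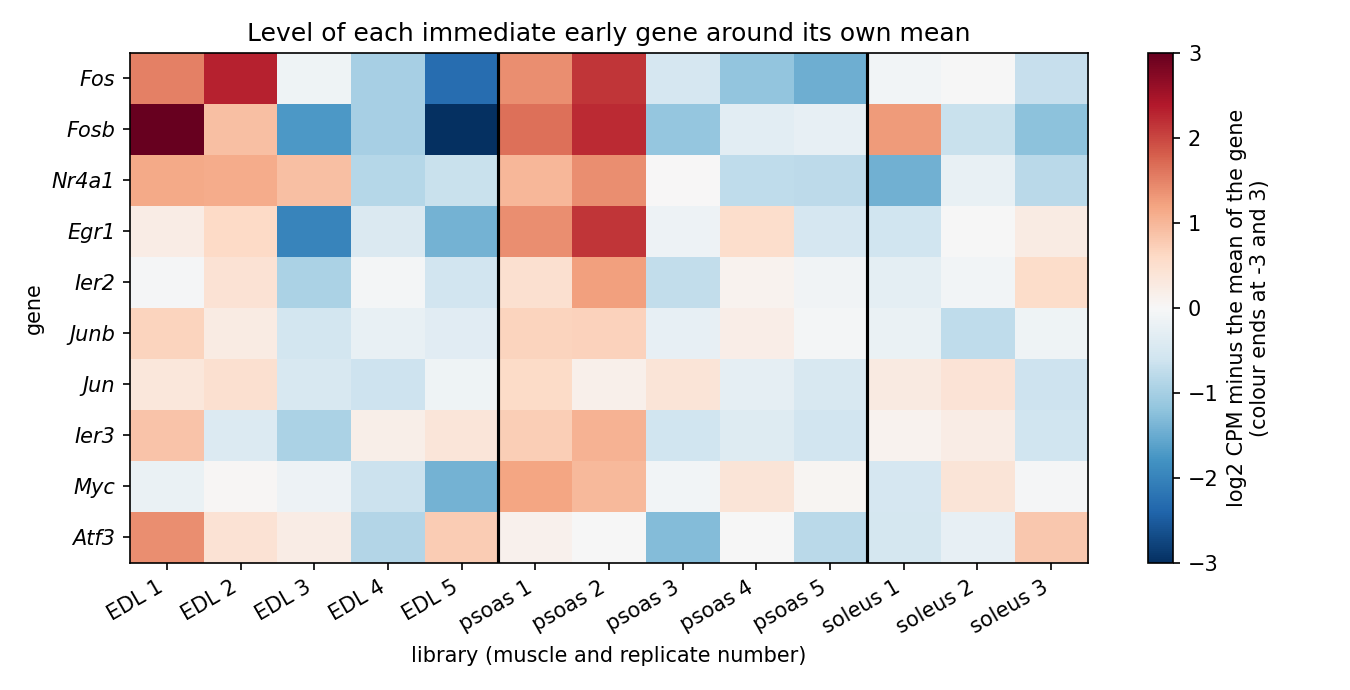
Log2 CPM of the 10 genes (vertical) in the 13 libraries (horizontal), each gene centred on its own mean (colour from -3 to 3, log2 units). Fos, Fosb and Nr4a1 are above their means in replicates 1 and 2 of EDL and psoas and below them in replicates 4 and 5, whereas Jun and Junb remain pale throughout.

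Among other genes of the same response few were called between muscles. Of 30 further immediate early and primary response genes tested, 0 were called in any comparison of muscles, with median log2 fold changes of 0.08, -0.24 and -0.14 in psoas against EDL, soleus against EDL and soleus against psoas. The smallest edgeR p values in psoas against EDL belonged to Rhob (1.34, adjusted p = 0.0109) and Sik1 (1.40, adjusted p = 0.0221). In soleus against EDL they belonged to Rhob (1.13, edgeR adjusted p = 0.101) and to Klf10 (-0.95, adjusted p = 0.103), a factor induced by TGF-beta. For the replicate number, however, 21 of the 30 had an unadjusted p under 0.05, with 24.1% for all genes, and the highest pair mean fell in number 1 for 10 and in number 2 for 15 of the 30. Nr4a3, the close relative of Nr4a1, was at 159.7, 672, 127, 71.9 and 74.4 in EDL, at 168, 432, 299, 35.6 and 77.1 in psoas, and at 21.9, 627 and 18.9 in soleus, so that soleus replicate 2 stood far above the other soleus libraries.

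The feedback inhibitors of the response, among them phosphatases and RNA-binding proteins, were also called in 0 of 21 cases in any comparison of muscles (median 0.39 in psoas against EDL). For the number, 10 of 21 had an unadjusted p under 0.05, beside 24.1% of all genes. Zfp36l2, a binder of AU-rich elements, came nearest in psoas against EDL (1.29, edgeR adjusted p = 0.0184), and Dusp4, a nuclear phosphatase of ERK, in soleus against EDL (1.48, adjusted p = 0.0664). Dusp1, a phosphatase that switches off p38 and JNK, was at 344, 1239.6, 499.7, 295 and 131 in EDL, at 565, 1436, 270.2, 265 and 167 in psoas, and at 413, 729.9 and 426 in soleus. It was called over the numbers 2 to 5 (edgeR adjusted p = 0.00511) but not over all 5. Zfp36, which binds AU-rich elements and speeds the decay of messages such as Fos, ran from 17.6 to 330.5 in EDL and from 55.5 to 507 in psoas, lowest in number 5 of both. Errfi1, an inhibitor of the EGF receptor, ran from 512 to 2297 in EDL and from 744 to 4332 in psoas. Nr4a3, Dusp1, Zfp36 and Errfi1 were named after their values were seen.

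Upstream and downstream lists showed few calls. Of 7 other AP-1 and small Maf genes 0 were called between muscles (Fosl2 at 1.15, edgeR adjusted p = 0.0368, in psoas against EDL), and of 26 upstream kinases and factors 0 were called, with 7 of 26 at an unadjusted p under 0.05 for the number. Crem, a relative of CREB, met the limit on p in psoas against EDL but not that on the fold (-0.87, edgeR adjusted p = 0.00956). In the Myc network 1 of 11 was called: Mycl, a relative of Myc, was higher in psoas (679 ± 279) than in EDL (232 ± 75.8), a log2 fold change of 1.55 (SE 0.323, edgeR adjusted p = 0.00664). Of 14 nucleolar and growth genes that respond to Myc 0 were called in any comparison, with a median psoas to EDL change of 0.09 and 1 of 14 at an unadjusted p under 0.05 for the number. Of 15 known targets of AP-1 and EGR factors 1 was called: Vegfa, the angiogenic factor, was lower in psoas (590.4 ± 63.7) than in EDL (1291 ± 138), by -1.13 (SE 0.156, edgeR adjusted p = 0.00104). Of 10 genes of the integrated stress response, which also induces Atf3, 1 was called: Asns, asparagine synthetase, was higher in soleus (439.6 ± 98.0) than in EDL (139 ± 36.7), by 1.67 (SE 0.246, edgeR adjusted p = 0.00330). The number gave an unadjusted p under 0.05 for 3 of 7 other AP-1 genes, 1 of 11 in the Myc network, 5 of 15 targets and 4 of 10 stress response genes, beside 24.1% of all genes.

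Among the lists examined, most calls between muscles fell on the markers of fibres and of other cell types. In psoas against EDL, 4 of 5 mesothelial markers, Myod1 and Acta2 were called higher and 3 of 8 fibre genes (Tnnt3, Myh4 and Ckm) lower, while 0 were called among macrophage, neutrophil, endothelial, fibroblast, adipocyte, red blood cell and slow fibre markers. The mesothelial sums were 42 to 121 in EDL, 255 to 1050 in psoas and 49 to 165 in soleus, with Upk3b and Wt1 at 0 in some EDL and soleus libraries. In soleus against EDL, 4 slow fibre genes, Cfd and Adipoq and the mesothelial Lrrn4 were called higher and 4 fibre genes lower, and in soleus against psoas 0 markers were called. Neutrophil sums ran from 32 to 2348 and red blood cell sums from 49 to 6636, each highest in psoas libraries of number 4 or 5, where Fos was low. In EDL the neutrophil sum was also highest in replicate 4 (586). The red blood cell sums of EDL were instead highest in replicates 1 (577) and 2 (361), where Fos was high.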

How the data were processed

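Total RNA of whole EDL, psoas and soleus muscles was sequenced as paired 75 bp reads from a stranded TruSeq total RNA kit. The authors trimmed libraries of low base quality with Trimmomatic 0.32, aligned reads to GRCm38.p4 with TopHat2 2.1.1 (versions from the submitters' processing notes), and counted reads per gene. The deposited raw counts were tested here. The deposited signal is the normalized count, the count divided by 1 DESeq2 size factor per library (0.5023 to 2.417), and was used for levels and for a filter of 10 normalized counts in 3 libraries. Gene-level counts were fitted with edgeR 4.0.16 (TMM, quasi-likelihood, muscle as the only factor, all 13 libraries) in R 4.3.3, and adjusted p values were taken over all 17069 genes. That fit takes the libraries as independent, although some may share a mouse. DESeq2 1.42.0 and limma 3.58.1 (log2 of normalized count + 1) were alternatives. Log2 CPM used TMM-adjusted library totals and a prior count of 2. The study's own model also held the sequencing run, which the labels do not name. Annotation was GENCODE M21.

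The members and lists were chosen with earlier results of these data known. All 10 members were named, and of other lists the genes called, up to 5 per comparison, or the 2 with the smallest p where none was called, plus the 3 genes nearest to each member with a within-muscle SD over 0.8. Not every gene of that rule is printed. Genes named after their values were seen are marked as such. EDL and psoas libraries were matched by number: every correlation of same-number deviations was at least 0.289, above the limit of 0.1. The highest, 0.407, was that of number 1, whose EDL and psoas libraries came from different mice. The check therefore cannot show that a number is 1 mouse. The correlations with soleus ran from -0.302 to 0.421, and soleus was not matched. No 2 libraries of a muscle were duplicates (smallest chi-square per degree of freedom 56.5 over 23 pairs). On simulated counts of 14250 genes with 200 changed 4-fold, edgeR recovered 99.5% in psoas against EDL with 1 false call. Reads carry no molecular identifiers, so depth bounds counting error only. Sequences came from RefSeq (promoters, GRCm38.p6) and the GRCm38 genome (UTRs). Wild-type libraries were not used here.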

Additional observations from a re-analysis of the deposited data

Results flagged for a closer look

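Fosb in EDL replicate 1 stood at 110.7 normalized counts, far from the other 4 EDL libraries, which lay between 0 and 19.8. Its gap to the nearest library was 0.821 of the range of the group, above the limit of 0.71 for 5 libraries. The check was made on 20 combinations of a member and a muscle with 5 libraries, of which about 1 would be expected past the limit at a rate of 5%, and this was the 1 found. The same library had the highest total count of the series, 48835209, and its raw count of Fosb was 260.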

How the results depend on the processing

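With few replicates the counts of genes called moved with the method, while those of the members stayed at 0 in nearly all settings. DESeq2 called 1586 genes in psoas against EDL, 633 in soleus against EDL, 171 in soleus against psoas and 2210 for any difference. An adjusted p under 0.05 without a fold limit gave 3093 (with 1 member, Myc), 585 and 108. Fitting only the 2 muscles compared gave 557 genes for psoas and EDL and 8 for soleus and psoas. With the label code as a block, 86 were called for soleus and EDL and 6 for soleus and psoas, where upper-quartile scaling gave 6 and limma 20. Leaving out 1 library gave 317 (EDL replicate 3) to 802, 19 (soleus replicate 1) to 182, 3 (soleus replicate 1 or 2) to 21 (EDL replicate 5) and 264 (EDL replicate 3) to 642 genes, with 0 to 0 members, and put the median within-muscle SD of the members between 0.668 and 0.745.

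With the replicate block, 1192 genes were called in psoas against EDL and 0 members, 126 genes and 1 member in soleus against EDL (Nr4a1, -1.84), 11 genes and 0 members in soleus against psoas, and 1 member (Nr4a1) for any difference. No other call on a member changed under the block. Soleus libraries differ in age from the EDL and psoas libraries of their number, and only that of number 2 shares their code (T4), so the block rests on a number alone for the others. The EDL and psoas libraries of number 1 came from different mice, so the block joins them by number alone too.

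The test of the replicate number, its leave-outs and its DESeq2 version were chosen after seeing the data. DESeq2 called 1269 genes and 6 members, and leaving out 1 number gave 0 (number 2 or 3) to 53 (number 1) genes and 0 to 1 members.

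Of 660 recomputed fold changes of members, 621 kept direction and call, 38 changed sign and 1 became called. Fos in psoas against EDL was 0.0031 by limma. Fosb was 1.45 (label code), 0.59 (replicate block) and 0.86 (limma) there and 0.19 (limma) in soleus against EDL. In soleus against EDL, Jun was -0.045 (label code) and -0.15 (replicate block) and Ier2 was -0.026 (label code). The cause was not tested. Leaving out 1 library reversed, in psoas against EDL, Fos (-0.86 to 0.61), Fosb (-1.005 to 1.53), Ier3 (-0.22 to 0.35) and Nr4a1 (-0.49 to 0.10), in soleus against EDL, Fosb (-2.56 to 0.76), Jun (-0.080 to 0.36), Egr1 (-0.039 to 0.53), Ier2 (-0.038 to 0.43) and Ier3 (-0.37 to 0.067), and in soleus against psoas, Jun (-0.23 to 0.21), Atf3 (-0.10 to 0.66), Ier2 (-0.55 to 0.072) and Ier3 (-0.44 to 0.022).

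Depth limits Fosb most, with 10 raw counts or fewer in 8 of 13 libraries.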

Other observations

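Fkbp5 and Per1 were among the 53 genes called by the replicate number over the numbers 2 to 5 of EDL and psoas, and all genes described here were chosen after their values were seen. Fkbp5, a glucocorticoid-induced chaperone, was at 787, 2836, 1567, 220.0 and 452 normalized counts in EDL replicates 1 to 5, at 1452, 2847, 2672, 193 and 553 in psoas, and at 1514, 3222 and 244 in soleus. Its lowest values in EDL and psoas were in replicates 4 and 5, where Fos and Nr4a1 were lowest too. Per1, a core gene of the circadian clock, was at 686, 433, 545, 103 and 245 in EDL, at 1083, 683, 1083, 134 and 346 in psoas, and at 262, 409 and 167 in soleus. In EDL it was highest in replicate 1, in psoas replicates 1 and 3 were level at the top, and in soleus it was highest in replicate 2.

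Lep was instead highest in replicates 4 and 5 of EDL and psoas. It was at 5.96, 0.638, 1.99, 115 and 124 in EDL, at 1.86, 0.534, 3.66, 69.5 and 113 in psoas, and at 39.7, 2.14 and 390 in soleus. The libraries of EDL and psoas with the most Fos held almost no Lep. Replicate 3 of both muscles also held almost none, with Fos at 141 in EDL and 111 in psoas.

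The X-inactivation transcript Xist separated EDL replicate 1 (0.852) from psoas replicate 1 (6466), while in the numbers 2 to 5 the EDL and psoas libraries were both low or both high. The libraries of number 1 therefore came from different mice, as their ages also show, and both were high in Fos.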
